A study of Homo sapiens with 30 samples.

Results

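The genes described here are 10 host genes made from, or driven by, ancient retroviral insertions: ERVW-1, ERVFRD-1, ERVV-1, ERVV-2, ERVMER34-1, ERV3-1, ERVK3-1, ERVH48-1, ESRG and ABHD12B. They were chosen by symbol, and all 10 were present among the 28307 genes of each count table. RNA was sequenced from H9, an established human embryonic stem cell line, in 30 libraries that fall into 10 groups of 3, and library totals ran from 31190052 to 65637976 counts. Levels are given as CPM, the usual scaling of a gene's counts to the total of its library, and a single level for a group is the mean over its 3 libraries.

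Primed WT cells, which resemble the epiblast after implantation, grew on Matrigel. All other groups were naive cells, which resemble the epiblast before implantation, were reset chemically from primed H9 cells and grew on inactivated mouse fibroblasts. NaiveCult WT cells and XACT KO cells were reset with the NaiveCult protocol, and the XACT KO libraries came from clones with a deletion over the start sites of the long noncoding RNA XACT. The PXGL protocol gave the remaining groups. PXGL WT was compared with XIST KO, in which XIST, the RNA that coats the X chromosome, is deleted, and these XIST KO libraries were technical replicates of 1 clone. CRISPRi clones carry an inducible dCas9-KRAB repressor aimed at the XIST promoter, and were left untreated (CRISPRi UT) or given doxycycline (CRISPRi Dox). There was no group given doxycycline without the repressor, nor one with the repressor aimed elsewhere. Doxycycline, the induced repressor protein and XIST repression therefore cannot be told apart. In further PXGL cells SPEN, a repressor protein that binds XIST, was knocked down with either of 2 siRNA mixes that differ in their siRNAs (siSPEN1, siSPEN2), and siScr, a scrambled siRNA, was the control. The deposited tables are named with 3 different prefixes, which neither the labels nor the methods explain, and the prefix of PXGL WT is not that of NaiveCult WT and Primed WT. Whatever the prefix marks and the cell state cannot be told apart where PXGL WT is compared with them.

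Retroviruses that entered the germ line left proviruses whose env gene encodes the envelope protein that fuses virus and cell membranes. A few env genes kept an open reading frame and were put to use, above all in the placenta, where syncytin-1 (ERVW-1) and syncytin-2 (ERVFRD-1) fuse trophoblast cells into the syncytiotrophoblast and suppressyn (ERVH48-1) competes for the receptor of syncytin-1. HERV-H is another family, whose long terminal repeats act as promoters in human pluripotent cells, and ESRG is a noncoding RNA that arises from a HERV-H copy. ABHD12B, an abhydrolase family gene, was listed with it as a transcript linked to HERV-H in pluripotent cells.

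On hg38 (GENCODE 44), ERVW-1 lies on chromosome 7 (92468380 to 92477986, minus strand), ERVFRD-1 on chromosome 6 (11102489 to 11111725, minus), ERVMER34-1 on chromosome 4 (52722618 to 52751586, minus) and ERVH48-1 on chromosome 21 (42916803 to 42925630, minus). ERV3-1 lies on chromosome 7 (64990356 to 65006743, minus), where 16.4% of its exon bases are shared with ZNF117 on the same strand, and ERVK3-1 on chromosome 19 (58305374 to 58316812, plus), where 14.3% are shared with the read-through gene ZNF8-ERVK3-1 and an overlapping gene model. The counts also include a read-through gene, ERV3-1-ZNF117, that the 16.4% does not cover. Reads in shared bases may have been counted for neither gene, so levels of ERV3-1 and ERVK3-1 are uncertain. ESRG is a lncRNA gene on chromosome 3 (54632122 to 54639857, minus) inside CACNA2D3, which runs on the opposite strand, and ABHD12B is on chromosome 14 (50872053 to 50904970, plus). ERVV-1 (53013921 to 53016123) and ERVV-2 (53044740 to 53051680) are neighbours on the plus strand of chromosome 19. Their coding sequences were identical at 98.39% of 1430 aligned bases, with an identical run of 595 bases, and 847 of the 1506 windows of 100 bases in ERVV-2 also occurred in ERVV-1. A read that lies within such a window matches both genes, so the separate values of the pair are uncertain.

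RefSeq promoter entries (GRCh38.p14, from 250 bases before to 50 bases after a start) were at hand for 6 of the 10 genes, with 7 starts in all. ERVFRD-1, ERVV-2, ERVH48-1 and ESRG had no entry. The upstream sequence is shown, cut to bases outside any exon annotated on the same strand. Exons on the opposite strand were not checked. The sequence is given for the gene with the largest fall from Primed WT to PXGL WT (ERVMER34-1) and for a host gene with the opposite direction (ABHD12B). It is also given for an envelope gene that was highest in NaiveCult cells (ERVV-1). Capitals mark CG dinucleotides, the sites of DNA methylation. The positions are chr4:52751587-52751675 (minus strand), chr14:50871803-50872052 (plus) and chr19:53013671-53013920 (plus).
ERVMER34-1: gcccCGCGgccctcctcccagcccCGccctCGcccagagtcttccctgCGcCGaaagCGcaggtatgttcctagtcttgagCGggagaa
ABHD12B: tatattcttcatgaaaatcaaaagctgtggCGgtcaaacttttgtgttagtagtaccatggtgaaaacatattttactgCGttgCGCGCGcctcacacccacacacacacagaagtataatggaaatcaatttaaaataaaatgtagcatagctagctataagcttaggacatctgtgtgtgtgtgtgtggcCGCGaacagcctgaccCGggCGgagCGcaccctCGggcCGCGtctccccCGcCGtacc
ERVV-1: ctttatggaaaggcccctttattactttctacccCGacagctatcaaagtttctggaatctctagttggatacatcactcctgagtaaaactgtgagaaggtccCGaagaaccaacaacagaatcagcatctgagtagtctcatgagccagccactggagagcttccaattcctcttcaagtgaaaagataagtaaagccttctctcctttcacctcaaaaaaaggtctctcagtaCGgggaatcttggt
The ERVMER34-1 window of 300 bases held 24 CG dinucleotides and the ABHD12B window 23, against a median of 14 over 35116 promoters, of which 33.9% and 35.8% held at least as many. The ERVV-1 window held 5, and 33.7% of promoters held as few or fewer. TATAAA, searched on both strands, occurred in 11.5% of promoters and in the windows of ERVW-1, ERVK3-1 and 1 of the 2 ERV3-1 starts. ATGCAAAT, the octamer bound by POU factors, occurred in 1.8% of promoters and in none of the 7 windows.

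In wild-type cells the 10 genes differed widely in level, and per kilobase of exon their order depended on the state. ERVH48-1 stood at 314 CPM per kb in PXGL WT, 251 in NaiveCult WT and 18.4 in Primed WT. ESRG was next in PXGL WT, at 201 CPM per kb, and was highest of all in Primed WT, at 99.9. ERVMER34-1 was second in Primed WT at 20.3 CPM per kb and ERV3-1 was between 3.79 and 5.96 in all 3. ERVK3-1 was under 0.01 CPM per kb in each, with 0 to 4 counts in any of the 30 libraries, and too few to be tested. ERVK13-1, a further gene with an ERV symbol, was at 12.9 CPM in PXGL WT and 5.86 CPM in Primed WT.

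**Figure D1:**
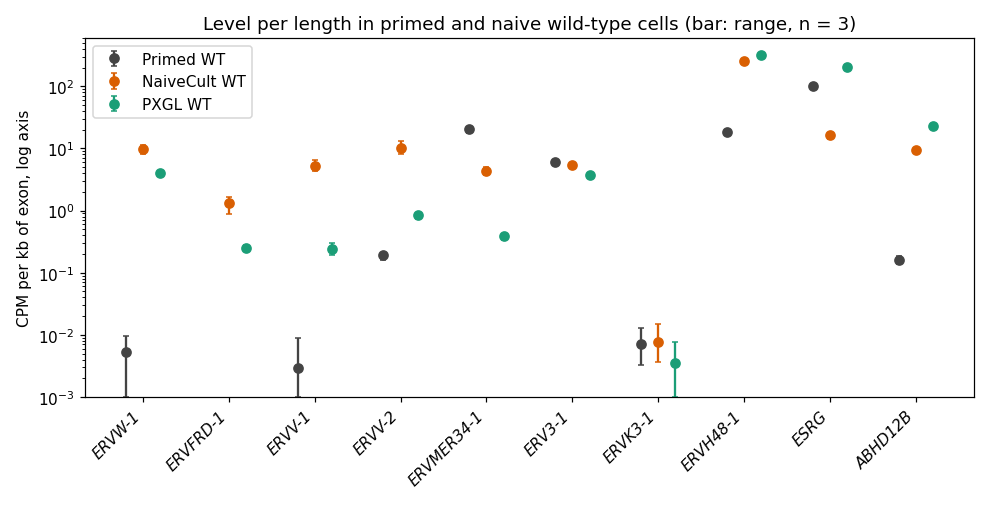
Level of each gene in CPM per kb of exon (log axis) in Primed WT, NaiveCult WT and PXGL WT, with points for the mean of 3 libraries and bars for their range, cut at 0.001 where a library is at 0. ERVFRD-1 has no point for Primed WT because all 3 libraries are at 0. ERVW-1, ERVV-1 and ABHD12B lie far lower in Primed WT, whereas ERVMER34-1 lies higher there and ESRG is lowest in NaiveCult WT.

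The identity of the cells was checked against marker genes. A list of 10 naive markers summed to 4377 to 5843 CPM in the 27 naive libraries and 29.2 to 33.7 CPM in Primed WT, where KLF17, DNMT3L and ARGFX were at 0. A list of 8 primed markers summed to 4822 to 5176 CPM in Primed WT and 147 to 273 CPM in the others. The 18 trophoblast markers summed to 640 to 874 CPM in NaiveCult WT and 773 to 1091 CPM in XACT KO, with all 18 at 1 CPM or more, against 33.4 to 75.9 CPM in PXGL groups. In Primed WT the sum was 143.5 to 148 CPM, of which SDC1 alone gave 128, while CGA, CGB8, HSD3B1 and INSL4 were at 0. Fibroblast markers summed to 57.7 to 63.5 CPM in Primed WT, which grew on Matrigel, and to at most 28.2 CPM in naive libraries, in NaiveCult WT. The targeted transcripts were lower in the groups that target them. XIST changed by -11.39 (SE 0.96) on the log2 scale in XIST KO and -2.62 (SE 0.51) after doxycycline, SPEN changed by -1.01 and -1.08 (SE 0.08 in both) with siSPEN1 and siSPEN2, and XACT changed by -4.63 (SE 0.52) in XACT KO (edgeR adjusted p of 3.20e-08, 3.96e-04, 9.00e-10, 4.09e-10 and 0.00373). CRISPRi Dox replicate 1 stood apart in this check, and without it the doxycycline value for XIST was -2.05, so the values of the 9 tested genes in that comparison are also given without this library.

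**Figure D2:**
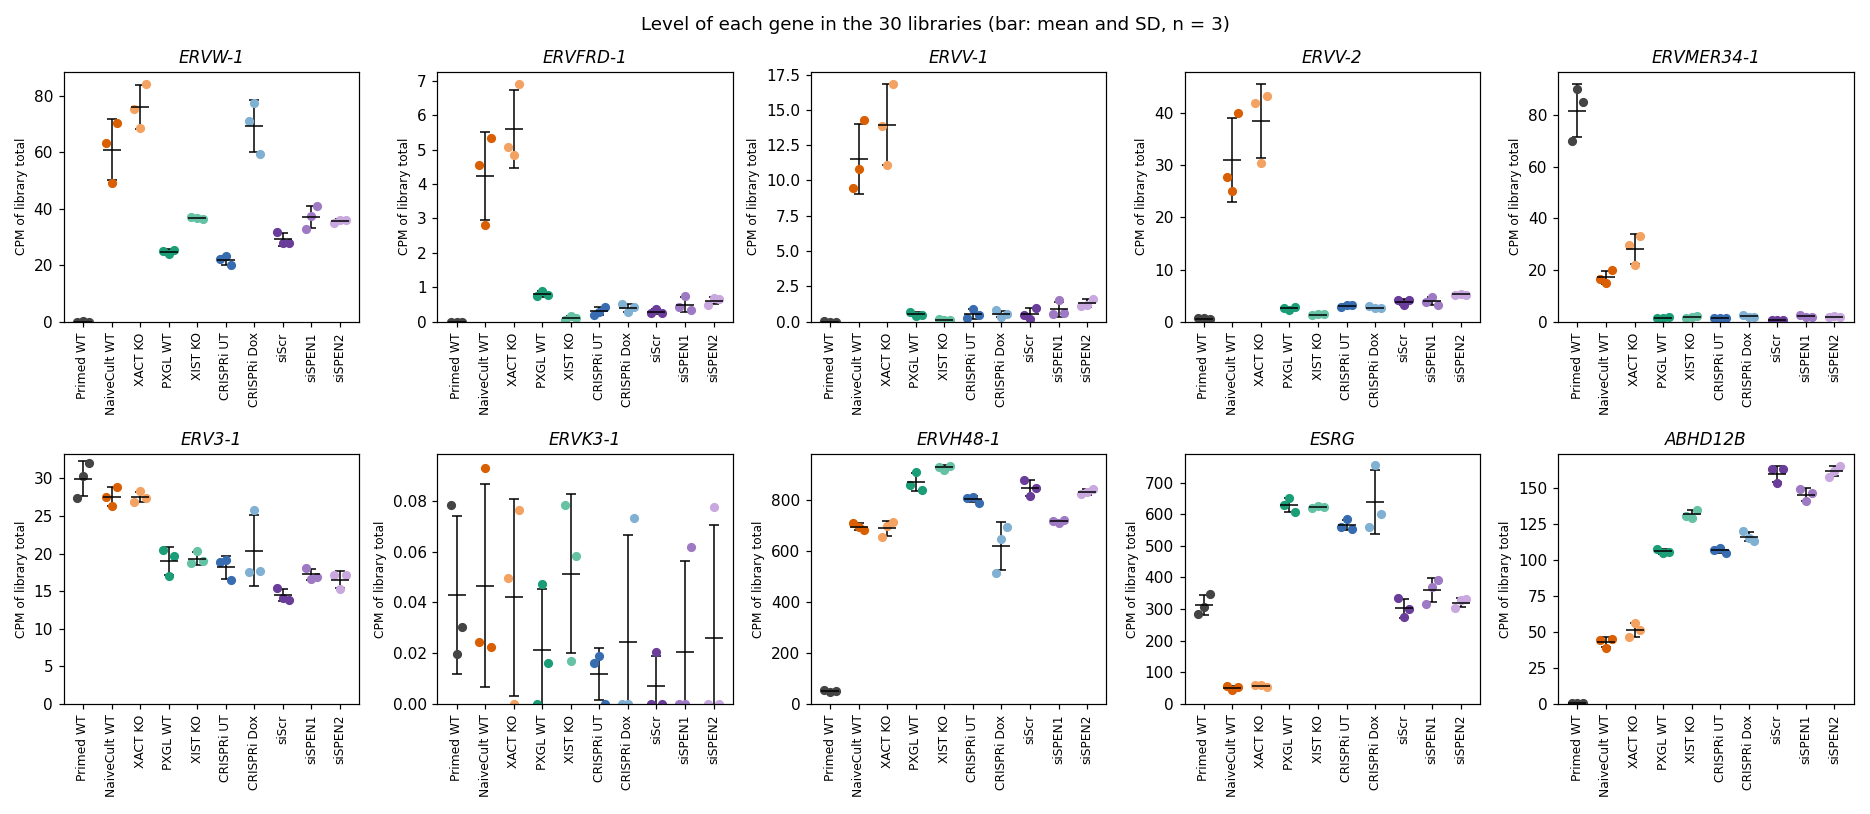
CPM of the library total for each of the 10 genes in the 30 libraries (points), by group, with the mean and SD of 3 libraries as bars. The linear axes start at 0 and differ between panels. ERVW-1 is highest in XACT KO, NaiveCult WT and CRISPRi Dox, ERVFRD-1, ERVV-1 and ERVV-2 in NaiveCult WT and XACT KO, ERVMER34-1 in Primed WT, and ESRG in PXGL cells without siRNA.

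The first question was how the genes differ between primed and naive cells. Between NaiveCult WT and Primed WT, 8 of the 9 tested genes passed an adjusted p of 0.05, 6 higher and 2 lower in NaiveCult WT, and all 8 also passed a log2 fold change of 1 either way. Over all 18663 genes tested, 85.4% passed the adjusted p and 49.6% both thresholds, and the CPM ranges of the groups were apart for 8 of the 9 genes against 85.4% of all. Between PXGL WT and Primed WT all 9 genes passed the adjusted p, 7 higher and 2 lower, against 87.5% of all genes, and 8 passed both thresholds, against 54.8%. The ranges of all 9 were apart, against 89.3% of all genes. The median log2 fold change of the 9 genes was 5.89 for NaiveCult WT and 4.30 for PXGL WT, against -0.01 and -0.03 over all genes. Both comparisons share the Primed WT libraries. Scaling by library totals in place of edgeR's TMM factors moved the median of all genes to -0.17 and -0.24, and among the 9 genes it turned the direction of ERV3-1 only, between NaiveCult WT and Primed WT. Of the 18 trophoblast markers, 17 were higher and 1 lower in NaiveCult WT than in Primed WT, and 13 were higher and 4 lower in PXGL WT. Their part in these results was not tested.

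ERVW-1 encodes syncytin-1. It gave 2, 3 and 0 counts in the Primed WT libraries (0.0392, 0.0592 and 0 CPM), 63.3, 49.2 and 70.5 CPM in NaiveCult WT and 25.2, 24.0 and 25.4 CPM in PXGL WT. The 3 groups did not overlap. Summed over libraries, the ratio to Primed WT was 2044 for NaiveCult WT (95% counting interval 876 to 6298) and 835 for PXGL WT (358 to 2574), intervals that cover counting error only. ERVFRD-1, syncytin-2, had no count in any Primed WT library, 4.56, 2.81 and 5.33 CPM in NaiveCult WT and 0.747, 0.901 and 0.780 CPM in PXGL WT. Against a floor of 3 counts over the group, it was at least 237-fold higher in NaiveCult WT and at least 44.5-fold higher in PXGL WT than in Primed WT.

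ERVV-1 and ERVV-2 encode envelope proteins with reported placental expression. ERVV-2 was at 27.8, 25.0 and 40.1 CPM in NaiveCult WT, 2.65, 2.25 and 2.71 CPM in PXGL WT and 0.627, 0.632 and 0.488 CPM in Primed WT, and no groups overlapped. Its log2 fold change was 5.89 (SE 0.20) between NaiveCult WT and Primed WT and 2.35 (SE 0.22) between PXGL WT and Primed WT. ERVV-1 had 1 count in 1 Primed WT library, was at 9.46, 10.8 and 14.3 CPM in NaiveCult WT and at 0.667, 0.427 and 0.488 CPM in PXGL WT. The counts of ERVV-1 gave a ratio to Primed WT of 1937 (95% counting interval 347 to 76547) for NaiveCult WT and 90.4 (15.8 to 3609) for PXGL WT.

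ERVH48-1, suppressyn, was at 55.5, 47.0 and 50.6 CPM in Primed WT, 709, 692 and 684 CPM in NaiveCult WT and 860, 910 and 840 CPM in PXGL WT, log2 fold changes to Primed WT of 3.92 and 4.30 (SE 0.07 in both). ABHD12B showed the widest step of the members with counts in every library: 0.705, 0.632 and 0.853 CPM in Primed WT, 44.5, 39.1 and 45.1 CPM in NaiveCult WT and 108, 105 and 106 CPM in PXGL WT. In the edgeR fit, which scales libraries by TMM factors rather than by their totals, it was 165.3-fold higher in PXGL WT (log2 7.37, SE 0.09) and 64.3-fold higher in NaiveCult WT (log2 6.01, SE 0.10) than in Primed WT. The opposite direction was seen for ERVMER34-1, which encodes an envelope protein known as HEMO. It was at 70.0, 89.9 and 85.0 CPM in Primed WT, 16.4, 14.9 and 20.0 CPM in NaiveCult WT and 1.59, 1.35 and 1.67 CPM in PXGL WT. From Primed WT it fell by 2.10 (SE 0.11) on the log2 scale to NaiveCult WT and fell by 5.51 (SE 0.14) to PXGL WT.

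ESRG was the member whose direction differed between the naive protocols. It was at 285.6, 308 and 347 CPM in Primed WT, 56.2, 43.997 and 52.4 CPM in NaiveCult WT and 629, 653 and 609 CPM in PXGL WT. It fell by 2.47 (SE 0.09, adjusted p = 3.53e-12) between Primed WT and NaiveCult WT and rose by 1.22 (SE 0.08, adjusted p = 3.45e-09) between Primed WT and PXGL WT. ERV3-1 was at 27.5 to 32.1 CPM in Primed WT and 26.3 to 28.9 CPM in NaiveCult WT, ranges that overlap (log2 0.03, SE 0.08, adjusted p = 0.70), and at 16.97 to 20.4 CPM in PXGL WT, which was lower (log2 -0.44, SE 0.08). With the replicate numbers as a block, PXGL WT had block terms of its own. The block value of ERV3-1 against Primed WT (log2 -0.30) therefore rests on PXGL WT replicate 1 and does not bear on pairing.

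Between the naive protocols all 9 genes passed the adjusted p, 3 higher and 6 lower in PXGL WT than in NaiveCult WT, against 70.6% of all genes, 7 passed both thresholds, against 27.4%, and the ranges of all 9 were apart, against 74.4%. ESRG had the largest rise, 3.69 (SE 0.09), followed by ABHD12B at 1.36 (SE 0.06) and ERVH48-1 at 0.38 (SE 0.06). ERVV-1 (-4.37, SE 0.23), ERVV-2 (-3.54, SE 0.17), ERVMER34-1 (-3.41, SE 0.14), ERVFRD-1 (-2.34, SE 0.26), ERVW-1 (-1.24, SE 0.11) and ERV3-1 (-0.48, SE 0.08) were lower. In the fit with the replicate block, where PXGL WT rests on its replicate 1, ERV3-1 was at -0.33 and ERVH48-1 at 0.27. The trophoblast markers moved with these envelope genes: 16 of 18 were lower in PXGL WT, with a median of -4.90 on the log2 scale. So did 5 of 6 fibroblast markers, while COL1A1 was higher in PXGL WT, by 1.03. The median of all 6 was -5.60, and their sums were 16.1 to 28.2 CPM in NaiveCult WT and 3.27 to 3.88 CPM in PXGL WT. The part of either list in the result was not tested. In bulk RNA, fewer cells of a type and less RNA per cell cannot be told apart.

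**Figure D3:**
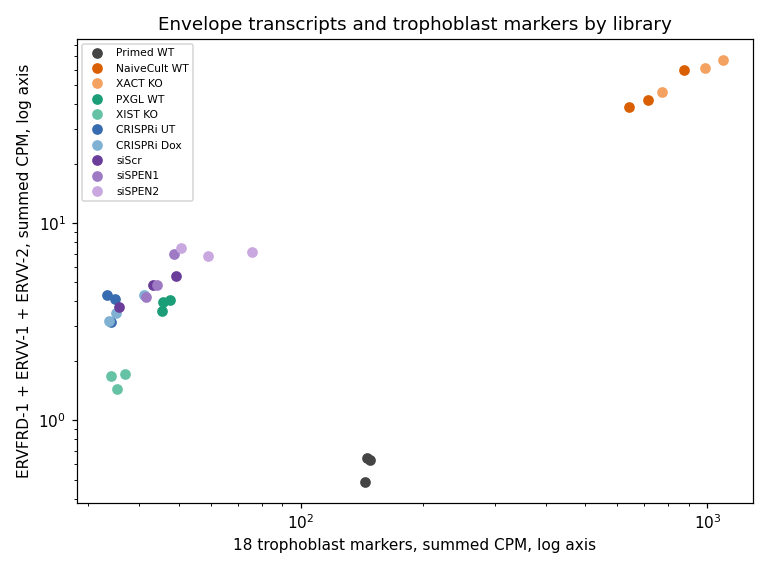
Summed CPM of ERVFRD-1, ERVV-1 and ERVV-2 against summed CPM of 18 trophoblast markers, both on log axes, with 1 point per library. NaiveCult WT and XACT KO lie at the top right, between 640 and 1091 CPM of markers, the XIST KO libraries lie lowest among naive libraries, and Primed WT lies below all of them at 143.5 to 148 CPM of markers, most of it SDC1.

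Genes that act on the envelopes were described beside them. GCM1, the transcription factor that activates syncytin genes in the placenta, was at 0.0116 CPM in Primed WT, 57.7 CPM in NaiveCult WT and 41.6 CPM in PXGL WT. SLC1A5, the receptor shared by syncytin-1 and suppressyn, was at 453, 393 and 378 CPM, differences that did not pass (adjusted p = 0.44 and 0.40). MFSD2A, the receptor of syncytin-2, was lower in naive cells, at 13.3, 0.703 and 1.59 CPM, whereas FURIN, a protease that cleaves envelope precursors, was higher, at 28.1, 70.9 and 183 CPM. In these comparisons 85.4% and 87.5% of all genes passed the adjusted p, and the counts of the lists are to be read against those shares. Of the 6 genes of this list, 3 were higher and 1 lower in NaiveCult WT than in Primed WT, and 4 higher and 1 lower in PXGL WT. Of 8 tested HERV-H linked transcripts, which include ESRG and ABHD12B, 5 were higher and 3 lower in NaiveCult WT, and 5 higher and 2 lower in PXGL WT. Among them LINC00458 stood at 10.6 CPM in Primed WT, 0.336 CPM in NaiveCult WT and 0 in PXGL WT, whereas LINC-ROR stood at 0.332, 8.38 and 7.42 CPM. Of 14 genes that silence retroelements, 7 were higher and 6 lower in NaiveCult WT, and 7 higher and 5 lower in PXGL WT. Past both thresholds, 0 were higher and 3 lower in NaiveCult WT, and 1 higher and 1 lower in PXGL WT. CBX5 fell most, by 3.34 and 3.20 (SE 0.09 in both). The 14 genes summed to a mean of 4310 CPM in Primed WT, 2524 CPM in NaiveCult WT and 3010 CPM in PXGL WT. TRIM28, the corepressor that KRAB zinc-finger proteins recruit, was higher by 0.98 (SE 0.05) in PXGL WT. TASOR, of the HUSH complex, was lower in both, at 189 CPM in Primed WT, 119 CPM in NaiveCult WT and 102 CPM in PXGL WT.

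Loss of XIST was examined in 2 systems. In XIST KO, 5 of the 9 tested genes passed the adjusted p, 2 higher and 3 lower, against 12.9% of 17286 genes, 2 passed both thresholds, against 1.28%, and the ranges of 6 were apart, against 37.2%. ERVFRD-1 was at 0.747, 0.901 and 0.780 CPM in PXGL WT and 0.0588, 0.170 and 0.117 CPM in XIST KO, without overlap, and fell by 2.76 (SE 0.41, edgeR adjusted p = 6.26e-05). ERVV-1 fell by 2.08 (SE 0.50, adjusted p = 0.00741), from 0.667, 0.427 and 0.488 CPM to 0.177, 0.102 and 0.0975 CPM. ERVV-2 fell by 0.90 (SE 0.15, adjusted p = 3.05e-04), from 2.65, 2.25 and 2.71 CPM to 1.20, 1.44 and 1.46 CPM. These levels are low, and with a filter of 1 CPM in 3 libraries ERVFRD-1 and ERVV-1 were not tested.

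In the same libraries, ERVW-1 moved the other way. It was at 25.2, 24.0 and 25.4 CPM in PXGL WT and 36.9, 36.9 and 36.5 CPM in XIST KO, a rise of 0.56 (SE 0.07, adjusted p = 8.34e-06). ABHD12B rose by 0.31 (SE 0.03, adjusted p = 1.24e-06), from 108, 105 and 106 CPM to 131, 130 and 135 CPM. ESRG (-0.02, SE 0.07), ERV3-1 (0.02, SE 0.11), ERVH48-1 (0.09, SE 0.07) and ERVMER34-1 (0.18, SE 0.19) did not pass. The 3 libraries of XIST KO are technical replicates of 1 clone, so the p-values measure the spread within that clone and clone and deletion cannot be told apart. Trophoblast markers were lower with the 3 envelope genes, 9 of 14 tested, and 1 was higher, TFAP2A at 0.37. The median of the tested markers was -1.40 against -0.01 for all genes. CGA, CGB3 and CYP19A1 were at -3.38, -5.73 and -4.35, and the part of the markers in the result was not tested. GCM1 rose by 0.28 (SE 0.06, adjusted p = 0.0023), 1 of 6 genes of its list to pass.

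**Figure D4:**
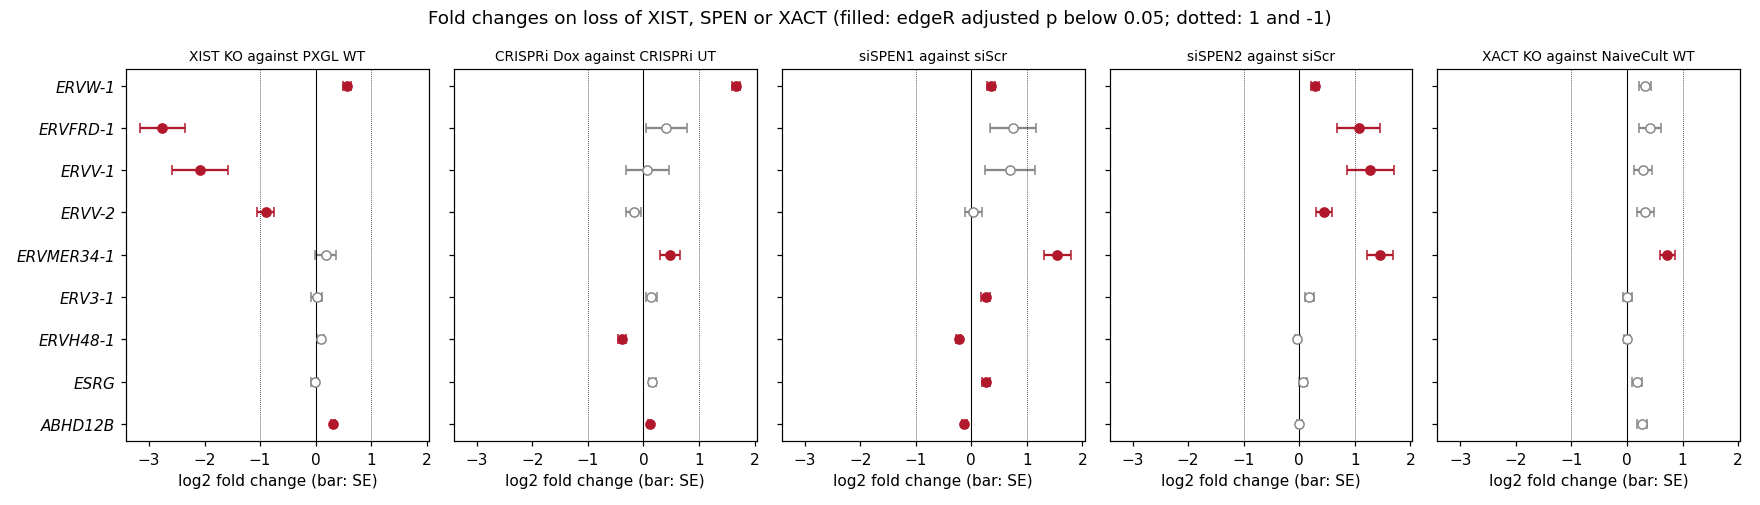
Log2 fold change (points) with its SE (bars) of 9 genes on loss of XIST, SPEN or XACT, filled where the edgeR adjusted p is below 0.05, with dotted lines at 1 and -1. In XIST KO, ERVFRD-1, ERVV-1 and ERVV-2 lie below 0 and ERVW-1 above it, and with doxycycline ERVW-1 lies at 1.66.

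With doxycycline, ERVW-1 was the 1 gene of 9 that passed both thresholds, against 3.81% of all genes, and 4 genes passed the adjusted p, 3 higher and 1 lower, against 39.6%. The ranges of 4 genes were apart, against 44.6%. The fit for this comparison also held the XIST KO libraries, which are technical replicates of 1 clone. Its SEs and p-values for doxycycline therefore rest partly on technical spread. When only the 6 libraries compared were fitted, 2 genes passed the adjusted p. ERVW-1 went from 22.1, 23.1 and 19.9 CPM in CRISPRi UT to 71.3, 77.5 and 59.5 CPM in CRISPRi Dox, a rise of 1.66 (SE 0.07, adjusted p = 4.47e-13), and of 1.65 without CRISPRi Dox replicate 1. ERVH48-1 fell by 0.39 (SE 0.07, adjusted p = 1.66e-04), from 809, 812 and 789 CPM to 513, 646 and 694 CPM, and by 0.27 without that library, which was the lowest. ABHD12B rose by 0.11 (SE 0.03, adjusted p = 0.0137), from 107, 109 and 105 CPM to 120, 116 and 113 CPM, and by 0.093 without that library (adjusted p = 0.0419). The ABHD12B call was lost when only the 6 libraries compared were fitted (adjusted p = 0.0528) and when all 30 were (0.102). ERVMER34-1 rose by 0.48 (SE 0.18, adjusted p = 0.0452), but its call was lost without any 1 of 8 libraries, the 3 of CRISPRi UT, CRISPRi Dox replicates 1 and 3, PXGL WT replicates 1 and 3 and XIST KO replicate 2 (adjusted p from 0.0501 to 0.282), and its value was 0.28 without CRISPRi Dox replicate 1. ESRG, at 559, 584 and 554 CPM in CRISPRi UT and 561, 755 and 601 CPM in CRISPRi Dox, did not pass (0.16, SE 0.07, adjusted p = 0.067), but passed without CRISPRi Dox replicate 1 (adjusted p = 0.00167). ERVFRD-1 (0.41, SE 0.37), ERVV-1 (0.07, SE 0.39), ERVV-2 (-0.18, SE 0.14) and ERV3-1 (0.14, SE 0.11) did not pass, nor did they without CRISPRi Dox replicate 1, at 0.21, -0.27, -0.26 and 0.25. GCM1 rose by 0.57 (SE 0.06, adjusted p = 1.02e-07) and PPARG, which also regulates trophoblast genes, by 0.75 (SE 0.06). Of the trophoblast list, 5 of 14 were higher and 2 lower, and 4 of the 6 receptor and regulator genes were higher. The 10 naive markers summed to 5290 to 5630 CPM in CRISPRi UT and 4579 to 4751 CPM in CRISPRi Dox, without overlap, with 4 lower, KLF17 (-1.24) and SUSD2 (-0.72) among them, and 2 higher, and their part in these results was not tested.

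The difference between both XIST systems was tested directly, as the log2 fold change with doxycycline minus that of XIST KO. Here 6 of 9 genes passed the adjusted p, against 21.8% of all genes, and 3 passed both thresholds, against 2.88%. Because the XIST KO libraries are technical replicates of 1 clone, these p-values do not measure the spread between clones. ERVFRD-1 (3.17, SE 0.56, adjusted p = 3.84e-04), ERVV-1 (2.15, SE 0.64, adjusted p = 0.0208) and ERVV-2 (0.72, SE 0.21, adjusted p = 0.0161) differed, having fallen in XIST KO and not having passed the test with doxycycline. ERVW-1 rose in both and by 1.10 more with doxycycline (SE 0.10, adjusted p = 1.51e-07). ERVH48-1 (-0.48, SE 0.10) and ABHD12B (-0.20, SE 0.05) were lower relative to XIST KO. The call of ERVV-1 was lost without any 1 of 4 libraries, CRISPRi Dox replicate 1, PXGL WT replicate 1, XIST KO replicate 2 or XIST KO replicate 3, and that of ERVV-2 without XIST KO replicate 1 (adjusted p = 0.0526). With all 30 libraries in 1 fit the calls of ABHD12B (adjusted p = 0.0673) and ERVV-2 (0.0619) were lost. Trophoblast markers moved in the same contrast, 10 of 14 higher with doxycycline relative to XIST KO and 1 lower, with a median of 1.59 and CGA, CGB3 and CYP19A1 at 3.36, 4.68 and 5.03, and their part in the result was not tested.

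SPEN knockdown was compared with the scrambled siRNA. With siSPEN1, 6 of 9 genes passed the adjusted p, 4 higher and 2 lower, against 43.7% of 16448 genes, 1 passed both thresholds, against 5.08%, and the ranges of 5 were apart, against 50.4%. With siSPEN2, 5 passed, all higher, against 41.2%, 3 passed both thresholds, against 4.24%, and the ranges of 5 were apart, against 51.1%. Both comparisons share the siScr libraries. The median log2 fold change of the 9 genes was 0.26 with siSPEN1 and 0.28 with siSPEN2, against -0.0005 and -0.0048 over all genes.

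ERVMER34-1 passed both thresholds with either mix. It was at 0.690, 0.597 and 0.801 CPM in siScr, 2.42, 1.64 and 1.98 CPM with siSPEN1 and 1.64, 2.34 and 1.76 CPM with siSPEN2, and neither knockdown group overlapped siScr. It rose by 1.55 (SE 0.24, adjusted p = 2.20e-05) and 1.46 (SE 0.24, adjusted p = 4.54e-05). The siScr level, from 29 to 33 counts per library, was the lowest of the 10 groups, with a mean of 0.696 CPM. The means of PXGL WT and CRISPRi UT, whose tables have another name prefix, were 1.54 and 1.49 CPM. ERVW-1 rose by 0.36 (SE 0.07) and 0.28 (SE 0.07), from 31.9, 27.8 and 27.9 CPM in siScr to 32.9, 37.5 and 40.9 CPM and to 34.95, 35.9 and 36.1 CPM. ERVFRD-1 rose by 1.07 with siSPEN2 (SE 0.39, adjusted p = 0.0324), from 0.238, 0.371 and 0.243 CPM to 0.488, 0.678 and 0.651 CPM, and ERVV-1 by 1.28 (SE 0.42, adjusted p = 0.0193), from 0.452, 0.206 and 0.970 CPM to 1.12, 1.18 and 1.62 CPM. With siSPEN1 the values were 0.75 (SE 0.41) and 0.70 (SE 0.45), which did not pass. The siSPEN1 value of ERVV-1 turned on single libraries, at 1.43 without siScr replicate 3, where it passed (adjusted p = 0.0282), and 0.13 without siSPEN1 replicate 2, and its siSPEN2 value was 2.01 without siScr replicate 3. ERVV-2 rose by 0.44 with siSPEN2 (SE 0.15, adjusted p = 0.0187). The siSPEN2 calls of ERVFRD-1 were lost without any 1 of siScr replicate 1, siScr replicate 3, siSPEN2 replicate 2 or siSPEN2 replicate 3 (adjusted p from 0.0880 to 0.104), those of ERVV-1 without siScr replicate 1, siScr replicate 2 or siSPEN2 replicate 3 (0.0592 to 0.108) and with DESeq2 (0.104), and that of ERVV-2 without siScr replicate 2 (0.118).

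ERVH48-1 fell by 0.23 with siSPEN1 (SE 0.05, adjusted p = 3.35e-04), from 878, 817 and 846 CPM to 719, 711 and 720 CPM. ESRG rose by 0.26 with siSPEN1 (SE 0.07, adjusted p = 0.0046), with overlapping ranges of 274 to 334 CPM in siScr and 317 to 391 CPM in siSPEN1, and ERV3-1 by 0.26 (SE 0.08, adjusted p = 0.0111). ABHD12B fell by 0.13 with siSPEN1 (SE 0.05, adjusted p = 0.0346), a call that was lost without any 1 of 6 libraries, siScr replicates 1 and 3, siSPEN1 replicates 2 and 3 and siSPEN2 replicates 1 and 2 (adjusted p from 0.0534 to 0.152). The call was also lost with RLE factors (edgeR adjusted p = 0.0520), without a filter on low counts (0.0607) and with all 30 libraries in 1 fit (0.0705). Trophoblast markers moved with the envelope genes under siSPEN2, where 6 of 12 were higher and 2 lower, with CGA at 2.228 and CGB3 at 2.88, and under siSPEN1 3 were higher and 1 lower. Their part in the result was not tested. GCM1 fell by 0.45 with siSPEN1 (SE 0.07) and was at -0.06 (SE 0.07) with siSPEN2, and SLC1A5 rose by 0.47 and 0.30 (SE 0.05 in both). FURIN fell by 0.51 and 0.50.

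Between the mixes, 4 of 9 genes passed the adjusted p, against 34.7% of all genes, 0 passed both thresholds, against 2.5%, and the ranges of 3 were apart, against 42.9%. The 4 were ERVV-2 (0.40, SE 0.15), ERVH48-1 (0.19, SE 0.05), ABHD12B (0.13, SE 0.05) and ESRG (-0.18, SE 0.07), as siSPEN2 minus siSPEN1, and except for ERVH48-1 these calls were lost without any 1 siSPEN2 library. They were also lost without siSPEN1 replicate 3, where ERVV-2 was at 0.26, those of ABHD12B and ESRG without siSPEN1 replicate 2, that of ERVV-2 without siSPEN1 replicate 1 and that of ESRG without siScr replicate 3. ERVMER34-1 was at -0.09 (SE 0.21) and ERVW-1 at -0.08 (SE 0.07), and neither passed.

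XACT loss was tested in NaiveCult cells. Of the 9 genes, 1 passed the adjusted p and 0 passed both thresholds, against 0.425% and 0.115% of 16472 genes, and the ranges of 2 were apart, against 23.6%. ERVMER34-1 was at 16.4, 14.9 and 20.0 CPM in NaiveCult WT and 29.5, 21.7 and 33.1 CPM in XACT KO, without overlap, and rose by 0.72 (SE 0.14, adjusted p = 0.0388). Leaving out any 1 of 3 libraries ended this call, with adjusted p of 0.118 for NaiveCult WT replicate 2, 0.164 for replicate 1 of XACT KO and 0.166 for its replicate 3. The other 8 did not pass, with ERVFRD-1 at 0.41 (SE 0.21), ERVW-1 at 0.33 (SE 0.11), ERVV-2 at 0.33 (SE 0.15), ERVV-1 at 0.28 (SE 0.16) and ABHD12B at 0.27 (SE 0.09), with ERVW-1 at 63.3, 49.2 and 70.5 CPM in NaiveCult WT and 75.2, 68.6 and 84.3 CPM in XACT KO. ERVW-1 passed without a filter on low counts (adjusted p = 0.0297), with the replicate block (0.0280) and with all 30 libraries (0.0193), and ABHD12B with all 30 libraries (0.00146). Of the 18 trophoblast markers 2 were higher, with a median of 0.31 on the log2 scale, and their part in the ERVMER34-1 result was not tested.

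HERV-H linked transcripts and silencing genes were counted in the same comparisons, where the share of all genes that passed the adjusted p was 12.9% in XIST KO, 39.6% with doxycycline, 43.7% with siSPEN1 and 41.2% with siSPEN2. Of 8 tested HERV-H linked transcripts, 2 were higher and 2 lower in XIST KO and 3 higher and 1 lower with doxycycline. Of 7 tested in siRNA cells, 2 were higher and 5 lower with siSPEN1, and 3 lower with siSPEN2. Among the 14 silencing genes, 2 were higher and 1 lower in XIST KO, 2 higher and 5 lower with doxycycline, 8 higher and 3 lower with siSPEN1 and 6 higher and 2 lower with siSPEN2.

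Over the 10 groups, the order of the levels differed by gene. ERVW-1 was highest in XACT KO, CRISPRi Dox and NaiveCult WT (76.1, 69.4 and 61.0 CPM), whose ranges overlapped, and next came siSPEN1, XIST KO and siSPEN2 at 37.1, 36.8 and 35.7 CPM, then siScr at 29.2, PXGL WT at 24.9, CRISPRi UT at 21.7 and Primed WT at 0.0328. ERVH48-1 was highest in XIST KO at 927 CPM, and the other naive groups lay between 618 CPM in CRISPRi Dox and 870 CPM in PXGL WT. ESRG was at 566 to 639 CPM in the 4 PXGL groups without siRNA and at 302 to 359 CPM in the 3 siRNA groups, whose tables have another name prefix, so siRNA transfection and whatever that prefix marks cannot be told apart. The corresponding ABHD12B levels were 106 to 132 CPM and 146 to 162 CPM. ERVFRD-1 and ERVV-1 were lowest in Primed WT and next lowest in XIST KO.

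The genes whose profile over the 10 group means was most like a member were found by the root-mean-square difference of centred log2(CPM + 0.5), over genes that varied by at least 1 log2 unit. ERVV-1 and ERVV-2 were each other's nearest, at 0.24, but with a pseudocount of 2 the nearest to ERVV-1 was IL36RN and the nearest to ERVV-2 was HOPX. ERVW-1 was nearest to NECTIN4, MAEL and CTSF (0.42 to 0.45), ERVFRD-1 to H2AC1, TREML2 and GPR32 (0.25 to 0.27), ERVMER34-1 to CCBE1, DSC3 and RNF217 (0.34 to 0.41) and ERVH48-1 to WNT10B, TFAP2A and PVR (0.17 to 0.18). ESRG was nearest to SYN1, MUC3A and UCP2 (0.26 to 0.29) and ABHD12B to PRDM1, USP6 and TPTEP1 (0.22 to 0.34). With a pseudocount of 2, the 3 nearest genes shared 2 names at most with these lists, and ERVMER34-1 shared 0.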

How the data were processed

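The authors deposited raw counts per gene for each of the 30 libraries, without normalization and without pooling replicates. Per their methods, stranded total RNA libraries were trimmed (Trim Galore 0.6.5), mapped with Bowtie 2 to hg38 and mm10, cleared of duplicates (Picard 2.23.5) and of mouse feeder reads, and counted over exons on the sense strand (HTSeq 0.13.5). Reads that fit several near-identical genes can be lost or split by this route. Here, CPM were computed from library totals. Differences were tested with edgeR 4.0.16 (R 4.3.3; quasi-likelihood F-test, TMM factors, filterByExpr with a minimum count of 10 and total of 15), in 4 fits of the libraries of related groups, with Benjamini-Hochberg adjustment over all genes tested. Both thresholds of the study were used, an adjusted p of 0.05 and a change of 1 on the log2 scale either way. No pair of libraries was identical. Positions are those of GENCODE 44 and promoters those of RefSeq. Counting intervals are 95% intervals, and ratios against 0 use a floor of 3 counts. Alternatives were RLE factors, library totals, DESeq2 1.42.0, other filters, other sets of libraries, a replicate block and leaving out each library. The genes, gene lists and tests were chosen with earlier results of these data known, and all 10 genes are named. Other genes are named where a list or a profile rule gives them. The profile result of ERV3-1 is not reported here. Where the labels do not say that libraries came from separate cultures, p-values measure the spread between libraries, which may be technical.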

Additional observations from a re-analysis of the deposited data

Results flagged for a closer look

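For 6 of the 9 tested genes, the change with doxycycline in CRISPRi cells differed from the change in the XIST KO clone in the interaction test of the 12-library edgeR fit. The XIST KO libraries are technical replicates of that 1 clone, so the p-values do not measure the spread between clones. ERVFRD-1 had the largest difference, 3.17 on the log2 scale (adjusted p = 3.84e-04), with 0.41 after doxycycline and -2.76 in XIST KO. ERVV-1 differed by 2.15 (adjusted p = 0.0208), with 0.07 and -2.08, and its near-identical neighbour ERVV-2 by 0.72 (adjusted p = 0.0161), with -0.18 and -0.90. ERVW-1 rose in both systems and differed by 1.10 (adjusted p = 1.51e-07), with 1.66 after doxycycline and 0.56 in XIST KO. ERVH48-1 differed by -0.48 (adjusted p = 0.0016), with -0.39 and 0.09, and ABHD12B by -0.20 (adjusted p = 0.00469), with 0.11 and 0.31. The call of ERVV-1 was lost without any 1 of 4 libraries (adjusted p from 0.0581 to 0.0638), that of ERVV-2 without XIST KO replicate 1 (0.0526) and with all 30 libraries in 1 fit (0.0619), and that of ABHD12B with all 30 libraries (0.0673). In the same contrast 10 of 14 trophoblast markers were higher and 1 lower, with a median of 1.59, and their part was not tested. The systems also differ in clone, in residual XIST, in doxycycline and in the repressor protein that it induces. The part of each in these differences was not tested.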

How the results depend on the processing

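Over 38 alternative settings, 1450 of 1557 recomputed fold changes kept their direction and their side of the adjusted p of 0.05, 70 lost it, 16 gained it and 21 changed sign, the last with adjusted p of 0.189 or more. These counts include the replicate block values of PXGL WT against Primed WT and NaiveCult WT, which rest on PXGL WT replicate 1. All 5 calls by adjusted p in XIST KO and all 8 between NaiveCult WT and Primed WT held in every alternative that tested the gene. Requiring 1 CPM in 3 libraries left 0 genes past both thresholds and 3 past the adjusted p in XIST KO, and 1 past both in the difference between the XIST systems, because ERVFRD-1 and ERVV-1 were no longer tested. The doxycycline count by adjusted p was 2 with only the 6 libraries compared and 2 with all 30 libraries. For siSPEN2 against siSPEN1 it was 2 with the replicate block and 1 with all 30 libraries. For XACT KO it was 0 with library totals, 2 without a filter, 2 with the replicate block and 3 with all 30 libraries. ERV3-1 changed sign with library totals in XACT KO (-0.0027) and between NaiveCult WT and Primed WT (-0.12), and ERVH48-1 in XACT KO with all 30 libraries (0.0034).

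Leaving out 1 library at a time gave 1 to 2 genes past both thresholds with siSPEN1, 1 to 3 with siSPEN2 and 0 to 1 between the mixes. By adjusted p it gave 3 to 5 with siSPEN2, 1 to 4 between the mixes and 0 to 1 in XACT KO. Signs changed, on values that did not pass, for ERV3-1 in XIST KO (-0.042 to 0.068), with doxycycline (-0.054 to 0.25), in their difference (-0.075 to 0.23), in XACT KO (-0.016 to 0.035) and between NaiveCult WT and Primed WT (-0.022 to 0.083). The same held for ESRG in XIST KO (-0.045 to 0.022), ERVV-1 with doxycycline (-0.29 to 0.64), ERVV-2 with siSPEN1 (-0.10 to 0.18), ABHD12B with siSPEN2 (-0.025 to 0.030), ERVMER34-1 between the mixes (-0.26 to 0.059) and ERVH48-1 in XACT KO (-0.028 to 0.027). The cause was not tested.

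Replicate numbers gave no sign of pairing: correlations of same-numbered libraries' deviations ran from -0.068 to 0.0845. The replicate block cannot be read for PXGL WT against Primed WT or NaiveCult WT, because PXGL WT had block terms of its own there and rests on its replicate 1. In the other comparisons, the calls of ERVMER34-1 with doxycycline and of ERVV-2 and ESRG between the SPEN mixes were lost. Those of ESRG with doxycycline and ERVW-1 in XACT KO were gained, and counts past both thresholds stayed the same. ERVFRD-1, ERVV-1 and ERVMER34-1 rest on few counts in PXGL cells (3 to 48, 5 to 77 and 29 to 168 per library), which limits their precision.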
